A study of Mus musculus with 13 samples.

Results

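The genes described here are 9 genes of the tight junction, the 6 claudins Cldn1, Cldn2, Cldn3, Cldn4, Cldn6 and Cldn7, occludin (Ocln) and the scaffold genes Tjp1 and Tjp3. They were taken by name, by matching the gene numbers of the count tables to mouse symbols, and are 9 of the 23785 genes listed in any of the 3 tables. Each of the 9 was present in all 3 tables and passed the filter on low counts in each of them, Cldn4, Cldn6 and Cldn7 by way of the BDL mice alone in the comparisons with no BDL. RNA was sequenced from whole livers of 13 male C57 mice that were 3 months old. Of these, 5 had no bile duct ligation (no BDL), and the labels describe them as not treated and name no sham operation. In the other 8 the bile duct had been ligated (BDL), and 4 of them received a control oligonucleotide (miR-Ctrl BDL) and 4 a hairpin inhibitor of the microRNA miR-873-5p (anti-miR-873-5p BDL), at 60 µg per mouse by tail vein on days 3 and 5, with livers taken on day 7. Ligation, surgery and injection therefore cannot be told apart in a comparison with the no BDL mice, and the only comparison with the same surgery is that between both BDL groups. Both comparisons with no BDL use the same 5 no BDL mice. The deposited table of the BDL groups holds miR-Ctrl BDL mice 1, 2 and 4 and anti-miR-873-5p BDL mice 1, 3 and 4, which is 3 mice per group. The study's methods provide for leaving out any outlying samples, found by clustering and principal components, and name no mice.

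Tight junctions close the space between neighbouring epithelial cells. In the liver they seal the bile canaliculus between hepatocytes and the lumen of the bile ducts between cholangiocytes, and so keep bile apart from blood. Claudins and occludin span the membrane, where claudins set how tight the barrier is and which ions pass, and the zonula occludens proteins encoded by the Tjp genes tie them to the actin cytoskeleton. Ligation of the bile duct causes cholestasis, in which bile backs up into the liver and bile duct cells multiply.

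The inhibitor is directed against miR-873-5p, whose sequence is shown because it is the target of the injected agent. The mature mouse miRNA, mmu-miR-873a-5p (RefSeq, GRCm38.p6, chr4:36668556-36668576, minus strand), is printed 5′ to 3′ with the seed, bases 2 to 8, in capitals.
mmu-miR-873a-5p: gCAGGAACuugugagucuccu
The 7 letters that pair with this seed, GTTCCTG, occurred at least once in the 3′UTR of 3259 of 21131 mouse genes, which is 15.4%. Among the 9 genes they occurred in 2, Cldn6 and Tjp1, once in each. Both places are printed with the 7 letters in capitals.
Cldn6, 3′UTR bases 450 to 456 of 723: agtcccaagaGTTCCTGctgtgg
Tjp1, 3′UTR bases 1357 to 1363 of 2372: atggcctcaaGTTCCTGaagccc
A match of letters is a description of the sequence and does not show that the miRNA binds there.

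The depth of the libraries was 12185333 to 19689037 counts per mouse. Values are given as normalized CPM, counts scaled to a common library size, in which library sizes were scaled by the trimmed mean of M values (TMM). Each comparison was scaled within its own table, so the CPM of 1 mouse differ between comparisons. The TMM factors were 0.681 to 0.969 in no BDL mice and 1.202 to 1.564 in BDL mice in both tables with no BDL mice, so the choice of scaling mattered there, and 0.919 to 1.114 where both BDL groups share a table. With library size alone, all genes had a median log2 fold change of 0.79 in the miR-Ctrl BDL group and 0.82 in the anti-miR-873-5p BDL group against no BDL, compared with -0.01 and -0.01 with TMM. Of the genes past the threshold, an adjusted p under 0.05, 53.4% and 60.8% were higher with TMM and 97.1% and 98.7% with library size alone. Relative to the median of all genes, all 9 junction genes were higher in both BDL groups under each of 3 other scalings, with Cldn4 4.63 to 4.65 above the median on the log2 scale in the miR-Ctrl BDL group and Cldn2, the lowest, 0.31 to 0.35 above it. Subtracting the median takes out a shift common to all genes, which is most of what a scaling changes. These values therefore place the 9 genes among all genes and cannot test the choice of scaling.

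The markers of the cells in these livers also differed between the groups. The summed level of 10 cholangiocyte markers was 40.2 to 118 CPM in no BDL, 432 to 1485 CPM in the miR-Ctrl BDL group and 221 to 1473 CPM in the anti-miR-873-5p BDL group. Most of this sum was Spp1 in every mouse. Spp1 had 366 to 1457 reads in no BDL, 4840 to 27836 with miR-Ctrl and 2569 to 32601 with anti-miR-873-5p. Of the markers that could be tested, 8 of 8 were higher in each BDL group. Of these, 4 (Krt19, Krt7, Cftr and Prom1) passed the filter on low counts through the BDL mice alone. The 10 hepatocyte markers summed to 101582 to 113665 CPM in no BDL and 46018 to 72567 CPM in the miR-Ctrl BDL group, where 6 of 10 were lower (the direction of Apoa1 and Ass1 turned with library size alone). In the anti-miR-873-5p BDL group they summed to 40699 to 86704 CPM, compared with 104170 to 116398 CPM in no BDL mice in that table, and 2 of 10 were lower. The 8 markers of pericentral hepatocytes summed to 4751 to 8885 CPM in no BDL, 1020 to 1366 CPM in the miR-Ctrl BDL group and 1551 to 2918 CPM in the anti-miR-873-5p BDL group, with 6 of 8 and 4 of 8 lower. The 5 mesothelial markers went from 0 to 0.271 CPM in no BDL to 11.7 to 46.7 CPM in the miR-Ctrl BDL group and 10.3 to 38.5 CPM in the anti-miR-873-5p BDL group, with 5 of 5 higher in both, each of which passed the filter through the BDL mice alone. Macrophage markers were higher for 5 of 6 genes in the miR-Ctrl BDL group and 1 of 6 in the anti-miR-873-5p BDL group, mesenchymal markers for 4 of 6 and 3 of 6, and neutrophil markers for 3 of 4 and 3 of 4. The neutrophil markers S100a8 and S100a9, with 2 to 37 and 0 to 56 reads in no BDL mice, passed the filter against miR-Ctrl BDL through the BDL mice alone. Of 7 pancreatic acinar markers 5 had no read in any no BDL mouse, and of the 2 tested Amy2a5 was lower in both BDL groups (log2 fold changes -1.17 and -1.27) and Cela2a did not pass the threshold. Of the gut epithelial markers none of the 2 tested passed the threshold. Among 7 endothelial markers none was past the threshold in the miR-Ctrl BDL group, with 1 of 7 under an unadjusted p of 0.05, and Kdr was lower in the anti-miR-873-5p BDL group. Over all genes tested, 19.1% were higher and 16.6% lower in the miR-Ctrl BDL group, and 13.1% and 8.44% in the anti-miR-873-5p BDL group. The part of these markers in the results below was not tested. In RNA of whole liver, fewer cells of a type and less RNA per cell cannot be told apart.

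Per length of exon, Cldn3 was the claudin with the highest level in every group. In no BDL livers the order of mean levels was Cldn3 at 52.5 ± 6.92 (SD, n = 5) CPM per kb of exon, Cldn2 at 27.2 ± 3.17, Cldn1 at 15.7 ± 9.36, Tjp3 at 6.63 ± 2.70, Ocln at 3.16 ± 0.99, Tjp1 at 2.94 ± 0.24, Cldn7 at 0.441 ± 0.292, Cldn6 at 0.232 ± 0.224 and Cldn4 at 0.106 ± 0.075. The ranges over mice separated Cldn3 from Cldn2 and Tjp1 from Cldn7, and all other neighbours in this order overlapped. In both BDL groups Cldn4 moved from the last place to the seventh, at 2.76 ± 0.57 (SD, n = 4) CPM per kb in the miR-Ctrl BDL group and 3.01 ± 2.09 in the anti-miR-873-5p BDL group, ahead of Cldn7 at 1.89 ± 0.45 and 2.08 ± 1.21 and of Cldn6 at 1.46 ± 0.44 and 1.92 ± 1.19. Within these last 3 places each gene overlapped the next in both BDL groups, while the range of Cldn4 lay above that of Cldn6 in the miR-Ctrl BDL group. In the miR-Ctrl BDL group the ranges separated Cldn3 from Cldn2 and Tjp1 from Cldn4, and with the inhibitor they separated Cldn3, Cldn2, Cldn1 and Tjp3 from each other. Levels of the no BDL and miR-Ctrl BDL mice come from one table and those of the anti-miR-873-5p BDL mice from another, which was scaled separately.

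**Figure D1:**
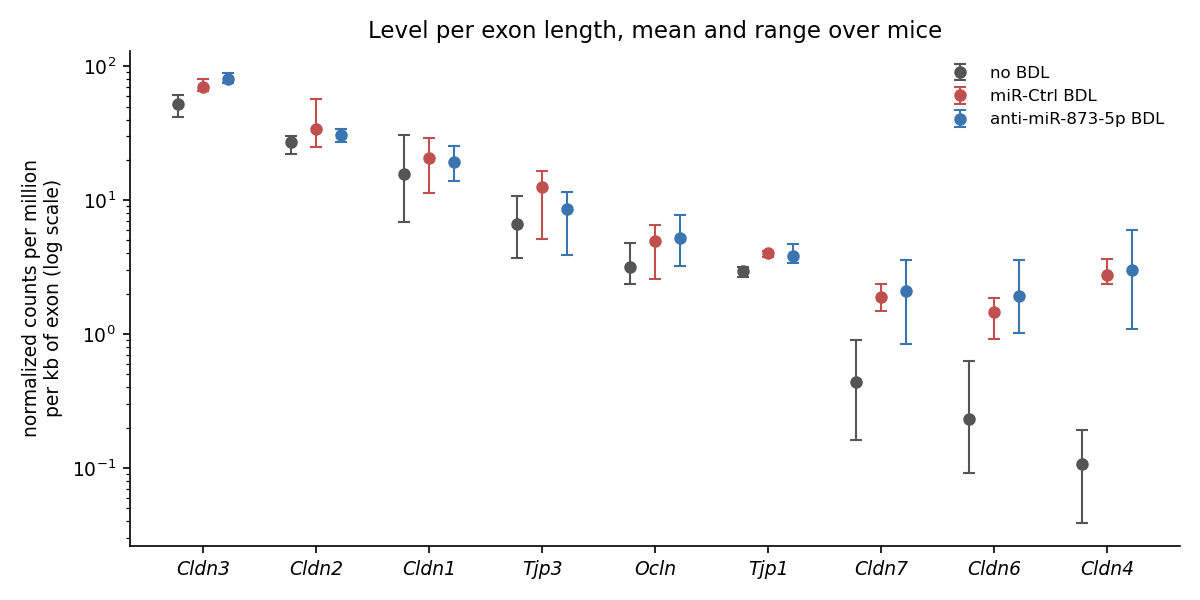
Mean level of each gene in CPM per kb of exon (log scale), with bars from the lowest to the highest mouse, for 5 no BDL, 4 miR-Ctrl BDL and 4 anti-miR-873-5p BDL mice. Genes are ordered by their level in no BDL livers, from Cldn3 at 52.5 to Cldn4 at 0.106, and the 3 genes at the right, Cldn7, Cldn6 and Cldn4, differ most between the groups.

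The summed level of the 23 claudin genes in the tables was 121 ± 15 CPM per kb (SD, n = 5) in no BDL, 156 ± 19 (n = 4) in the miR-Ctrl BDL group and 159 ± 10 (n = 4) in the anti-miR-873-5p BDL group. Cldn3 held on average 43.6%, 45.3% and 51.1% of this sum. Cldn4 held 0.0886% of it in no BDL, 1.81% in the miR-Ctrl BDL group and 1.86% in the anti-miR-873-5p BDL group, so Cldn4 remained a small share of all claudin reads per length.

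Cldn4, Cldn6 and Cldn7 were near the limit of detection in no BDL livers and rose in both BDL groups. Cldn4, a sealing claudin of secretory and absorptive epithelia, lies on chr5:134945123-134946934. It had 5, 1, 1, 2 and 5 reads in no BDL mice 1 to 5, which is 0.35, 0.079, 0.070, 0.14 and 0.33 CPM. MiR-Ctrl BDL mice 1 to 4 had 88, 130, 63 and 94 reads, or 4.48, 6.55, 4.31 and 4.70 CPM. Every miR-Ctrl BDL mouse stood far above every no BDL mouse. The difference was 24.7-fold (95% interval 13.9 to 43.8), a log2 fold change of 4.62 ± 0.37 (SE) with an adjusted p of 7.9e-05 by edgeR's quasi-likelihood test. Anti-miR-873-5p BDL mice 1 to 4 had 1.98, 3.98, 10.8 and 5.11 CPM, from 37, 63, 208 and 121 reads. They too were all above the no BDL mice, but differed more among themselves, with mouse 3 highest and mouse 1 lowest. Against no BDL the difference was 26.5-fold (95% interval 10.5 to 66.5), with an adjusted p of 0.0014 in the same test. The filter on low counts asked for 4 mice over its limit, which Cldn4 passed through the BDL mice alone, with 0 of the 5 no BDL mice over it. Without that filter, over all genes with at least 1 count, the adjusted p was 5.2e-05 and 8.5e-04 in edgeR's test.

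Cldn6, a claudin known mainly from embryonic epithelia, lies on chr17:23679348-23682446. Its levels in no BDL mice 1 to 5 were 0.28, 0.16, 0.21, 1.08 and 0.26 CPM, from 4, 2, 3, 16 and 4 reads. In miR-Ctrl BDL mice 1 to 4 they were 3.05, 3.17, 1.57 and 2.25 CPM. No BDL mouse 4 stood above the other no BDL mice but below every BDL mouse. The log2 fold change in the miR-Ctrl BDL group was 2.62 ± 0.49 (6.14-fold, adjusted p 0.0031). Anti-miR-873-5p BDL mice 1 to 4 had 1.82, 1.77, 6.14 and 3.46 CPM, a log2 fold change against no BDL of 2.98 ± 0.58 (7.90-fold, adjusted p 0.0080). As for Cldn4, mouse 3 was the highest of this group, and every mouse of this group lay above all no BDL mice. Of the no BDL mice 1 was over the limit of the filter, and without the filter the adjusted p was 0.0031 and 0.0067 in edgeR's test.

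Cldn7, a claudin of the lateral membrane of many epithelia, lies on chr11:69964779-69967886. No BDL mice 1 to 5 had 0.98, 0.32, 0.77, 1.76 and 0.46 CPM, and miR-Ctrl BDL mice 1 to 4 had 4.22, 4.64, 2.87 and 3.00 CPM. The groups did not overlap, and the log2 fold change was 2.08 ± 0.41 (4.24-fold, adjusted p 0.0038). Anti-miR-873-5p BDL mice 1 to 4 had 2.73, 1.64, 6.92 and 4.94 CPM. Mouse 2 of this group lay below no BDL mouse 4, at 1.79 CPM in the scaling of this table, and the other 3 lay above all no BDL mice. The log2 fold change was 2.20 ± 0.52 (4.60-fold, adjusted p 0.017), and without anti-miR-873-5p BDL mouse 3 it was 1.82 with an adjusted p of 0.060. Of the no BDL mice 3 were over the limit of the filter, 1 fewer than needed, and without the filter the adjusted p was 0.0037 and 0.015 in edgeR's test.

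**Figure D2:**
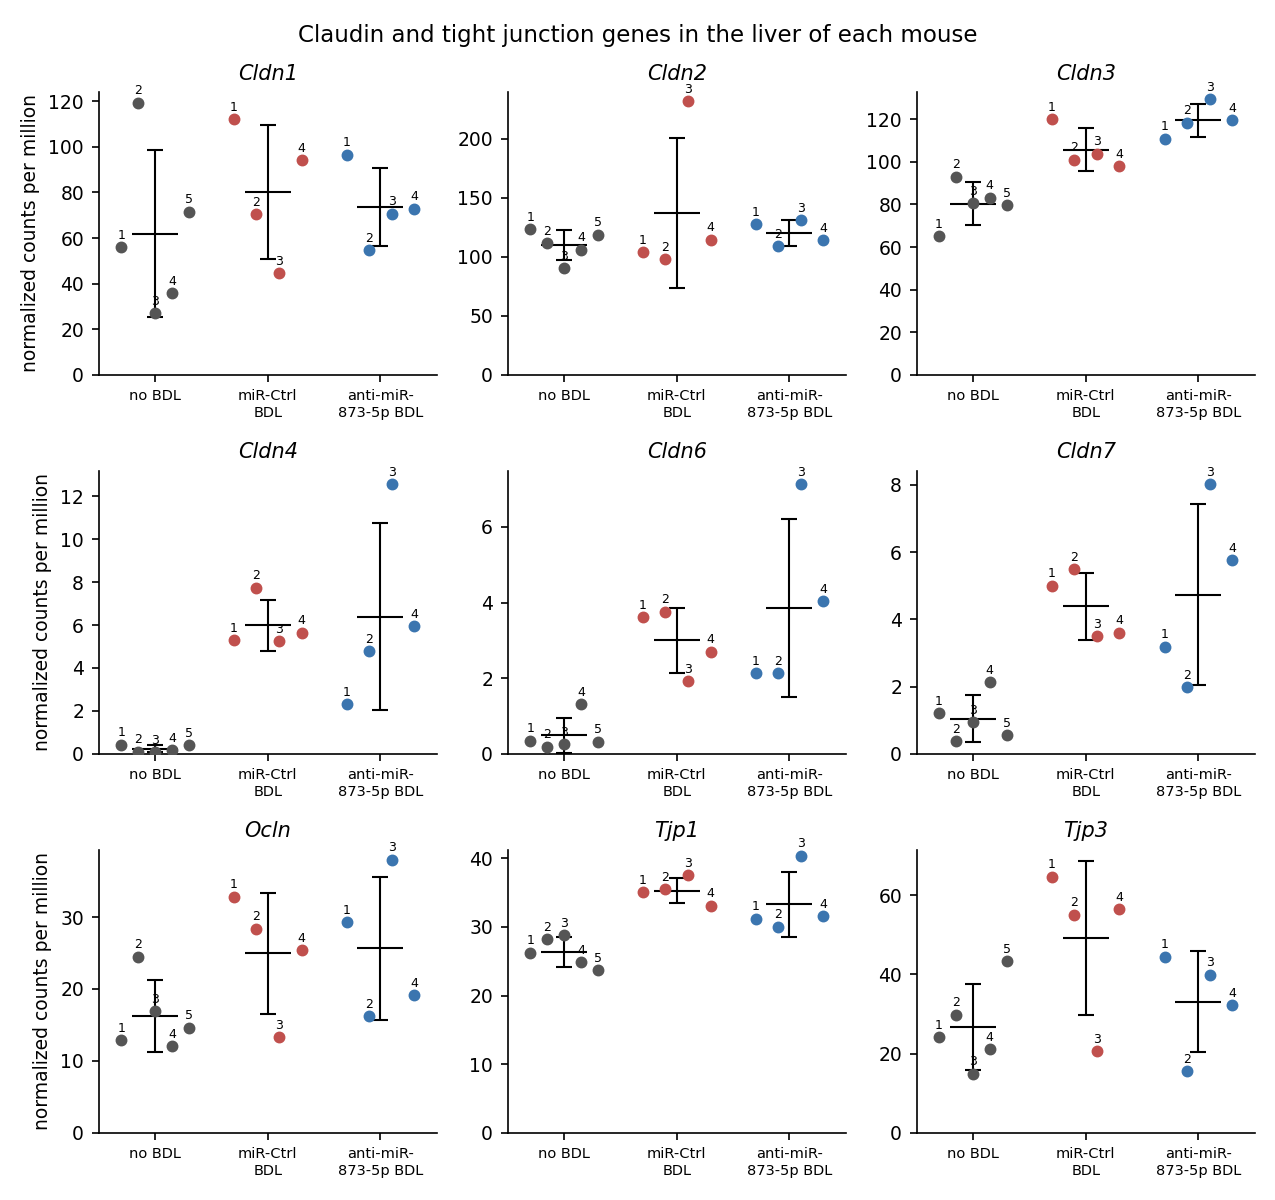
Level of each gene in the liver of each mouse, in normalized CPM with all 13 mice scaled together, which puts the values somewhat above those of the single tables in the text. Points are mice with their numbers, and horizontal lines and bars are the mean and SD over 5, 4 and 4 mice. In Cldn3, Cldn4, Cldn6 and Tjp1 all 8 BDL mice lie above all 5 no BDL mice, and Cldn2 shows miR-Ctrl BDL mouse 3 apart from its group.

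The 250 bases before the transcription start of Cldn4, Cldn6 and Cldn7 are printed because these 3 genes had the largest fold changes. They come from RefSeq on GRCm38.p6, each 5′ to 3′ on the strand of its gene, and for Cldn7 before the second of 2 starts, while the stretch before the first held none of the motifs searched. For Cldn6 the start used lies inside the gene coordinates given above, so the last bases of its stretch fall within them. Capitals mark the motifs searched on both strands, which were the AP-1 motif TGACTCA, the E-box CAGGTG that Snail and Zeb factors can bind, the Grainyhead-like motif AACCGGTT and the Ets motif CCGGAAGT. A TATA box, TATAAA, was searched on the gene's strand only.
Cldn4, chr5:134946935-134947184, minus strand: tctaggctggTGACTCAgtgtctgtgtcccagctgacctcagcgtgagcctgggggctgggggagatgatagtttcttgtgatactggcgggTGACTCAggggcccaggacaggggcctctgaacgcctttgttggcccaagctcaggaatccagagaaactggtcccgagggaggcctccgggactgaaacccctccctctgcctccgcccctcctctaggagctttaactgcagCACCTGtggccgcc
Cldn6, chr17:23679115-23679364, plus strand: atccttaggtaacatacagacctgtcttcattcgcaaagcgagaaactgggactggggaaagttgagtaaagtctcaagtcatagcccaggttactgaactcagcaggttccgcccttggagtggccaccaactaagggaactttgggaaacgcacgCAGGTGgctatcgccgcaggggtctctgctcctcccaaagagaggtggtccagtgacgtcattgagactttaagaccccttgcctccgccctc
Cldn7, chr11:69965171-69965420, plus strand: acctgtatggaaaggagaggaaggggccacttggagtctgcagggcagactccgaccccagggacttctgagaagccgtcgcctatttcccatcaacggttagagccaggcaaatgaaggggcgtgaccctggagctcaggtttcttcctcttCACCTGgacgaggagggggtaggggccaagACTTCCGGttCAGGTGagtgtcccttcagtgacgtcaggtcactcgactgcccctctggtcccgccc
The Cldn4 stretch held 2 copies of the AP-1 motif and 1 E-box, that of Cldn6 1 E-box, and that of Cldn7 2 E-boxes and 1 Ets motif. Among 32851 mouse promoters of this length, 4.46% held the AP-1 motif, 17.2% the E-box, 2.88% the Ets motif, 0.116% the Grainyhead-like motif and 7.59% the TATA box. Of the other 6 genes, Ocln held 2 E-boxes before the second of its 2 starts and none of the motifs before the first, Tjp3 held 1 E-box before each of 2 starts, Cldn2 held a TATA box, and Cldn1, Cldn3 and Tjp1 none of these letters. A match describes the sequence and is not a measured binding site.

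Within the groups, Cldn6 and Cldn7 varied together from mouse to mouse. Over the 13 mice, deviations of log2 levels from the group means gave a Pearson r of 0.89 for this pair (Spearman coefficient 0.89, and r 0.78 without the 2 mice farthest from the median of Cldn6). With the mean deviation of 8 cholangiocyte markers, r was 0.87 for Cldn7 (0.85 without the 2 farthest mice), 0.74 for Cldn6 (0.61) and 0.64 for Cldn4 (0.41). For Cldn1, Cldn2, Cldn3, Ocln, Tjp1 and Tjp3 it was -0.44 to 0.31, although for Cldn3 it went from -0.12 to 0.59 without the 2 farthest mice. These are descriptions over mice that share a scaling, and Cldn4 and Cldn6 rest on few reads in the no BDL mice.

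**Figure D3:**
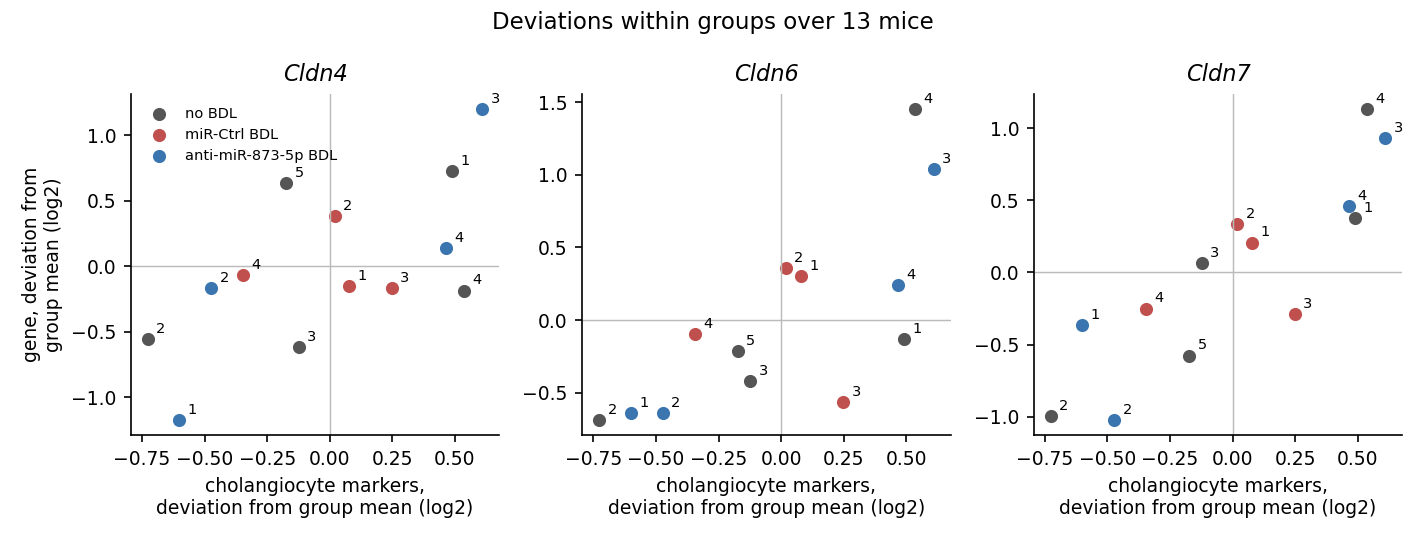
Deviation of Cldn4, Cldn6 and Cldn7 from the group mean (vertical, log2) against the mean deviation of 8 cholangiocyte markers (horizontal, log2), with 1 point per mouse over 13 mice, colours for the groups and mouse numbers beside the points. Pearson r is 0.64, 0.74 and 0.87 from left to right, and anti-miR-873-5p BDL mouse 3 lies at the upper right in all 3 panels.

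The claudins that dominate no BDL liver changed less. Cldn3, a sealing claudin, lies on chr5:134986214-134987476. It had 52.9, 77.2, 66.0, 68.6 and 65.8 CPM in no BDL mice 1 to 5 and 102, 85.4, 85.2 and 81.7 CPM in miR-Ctrl BDL mice 1 to 4. All 4 miR-Ctrl BDL mice were above all no BDL mice, and Cldn3 rose by 1.34-fold (log2 fold change 0.42 ± 0.12, adjusted p 0.024). Without miR-Ctrl BDL mouse 1 the log2 fold change was 0.34 and the adjusted p 0.075. Anti-miR-873-5p BDL mice 1 to 4 had 94.98, 98.6, 112 and 103 CPM, again all above the no BDL mice, and the change was 1.51-fold (log2 fold change 0.60 ± 0.12, adjusted p 0.010). The exons of Cldn3 share 3.18% of their bases with Wbscr25 on the opposite strand, and the library kit does not mark strand.

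Cldn1, a barrier claudin found in hepatocytes and bile ducts, lies on chr16:26356645-26371839 and varied widely in every group. No BDL mice 1 to 5 had 45.5, 99.1, 22.2, 29.5 and 59.0 CPM, miR-Ctrl BDL mice 94.7, 59.7, 36.5 and 78.4 CPM, and anti-miR-873-5p BDL mice 82.7, 45.4, 60.9 and 62.7 CPM. The groups overlapped fully, with the highest value in no BDL mouse 2. The log2 fold changes against no BDL were 0.40 ± 0.42 (adjusted p 0.49) and 0.27 ± 0.39 (adjusted p 0.65), and the interval of the first, -0.54 to 1.34, includes changes of more than 2-fold upward.

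Cldn2, which forms a channel for small cations and water, lies on chrX:139800808-139811386. It had 101, 92.4, 74.0, 87.3 and 97.9 CPM in no BDL mice 1 to 5 and 87.7, 82.8, 190.1 and 95.3 CPM in miR-Ctrl BDL mice 1 to 4. Apart from mouse 3, the miR-Ctrl BDL mice lay within the range of the no BDL mice. The log2 fold change was 0.33 ± 0.24 (adjusted p 0.31), and without miR-Ctrl BDL mouse 3 it was -0.04. In anti-miR-873-5p BDL mice 1 to 4 Cldn2 had 109, 90.4, 113 and 97.8 CPM, with a log2 fold change of 0.15 ± 0.13 (adjusted p 0.42). In miR-Ctrl BDL mouse 3 the summed endothelial markers were 27.8 CPM, compared with 71.5 to 127 CPM in the other 3 mice, and the summed neutrophil markers were 197 CPM, compared with 19.6 to 61.9 CPM.

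Occludin, the first transmembrane protein known from tight junctions, was higher on average in both BDL groups without passing the threshold. Ocln lies on chr13:100496504-100552718. Its levels were 10.5, 20.3, 13.8, 9.95 and 12.1 CPM in no BDL mice 1 to 5, 27.7, 24.0, 10.9 and 21.1 CPM in miR-Ctrl BDL mice 1 to 4 and 25.1, 13.5, 32.7 and 16.4 CPM in anti-miR-873-5p BDL mice 1 to 4. In the miR-Ctrl BDL group 3 of 4 mice, and in the anti-miR-873-5p BDL group 2 of 4, were above the highest no BDL mouse. The log2 fold changes were 0.66 ± 0.28 (adjusted p 0.096) and 0.69 ± 0.29 (adjusted p 0.11). The adjusted p of the first was 0.038 without no BDL mouse 2 and 0.012 without miR-Ctrl BDL mouse 3, and that of the second 0.039 without anti-miR-873-5p BDL mouse 2.

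Of both scaffold genes, Tjp1 rose with miR-Ctrl, and Tjp3 did not pass the threshold in either BDL group. Tjp1 encodes ZO-1, which links claudins to actin, and lies on chr7:65296165-65527850. No BDL mice 1 to 5 had 21.4, 23.4, 23.5, 20.5 and 19.5 CPM and miR-Ctrl BDL mice 1 to 4 had 29.6, 30.0, 30.8 and 27.6 CPM. The groups did not overlap, and Tjp1 rose by 1.36-fold (log2 fold change 0.45 ± 0.086, adjusted p 0.0036). Anti-miR-873-5p BDL mice 1 to 4 had 26.7, 25.0, 34.8 and 27.2 CPM, compared with 19.9 to 24.0 CPM in no BDL mice in this table. These groups did not overlap either, and the log2 fold change was 0.36 ± 0.12, but the adjusted p was 0.051. It was 0.046 with DESeq2's size factors, 0.025 with DESeq2's Wald test, 0.031 with all 13 mice in 1 fit and 0.028 without anti-miR-873-5p BDL mouse 2.

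Tjp3 encodes ZO-3, a further scaffold protein of epithelial junctions, and lies on chr10:81273188-81291581. It had 19.7, 24.7, 12.2, 17.3 and 35.8 CPM in no BDL mice 1 to 5 and 54.6, 46.6, 16.96 and 47.1 CPM in miR-Ctrl BDL mice 1 to 4. Mouse 3 of the miR-Ctrl BDL group lay among the no BDL mice and the other 3 above all of them. The log2 fold change was 0.91 ± 0.36 with an adjusted p of 0.074, which was 0.0087 without miR-Ctrl BDL mouse 3, 0.027 without no BDL mouse 5 and 0.038 with DESeq2's Wald test. Anti-miR-873-5p BDL mice 1 to 4 had 38.1, 12.9, 34.4 and 27.7 CPM, a log2 fold change of 0.33 ± 0.35 (adjusted p 0.54). Here mouse 2 was the lowest, as mouse 3 was in the miR-Ctrl BDL group. Tjp3 was the only one of the 9 genes whose counts were not identical between the tables, and 1.21% of its exon bases overlap Apba3 on the opposite strand.

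Counted together, 5 of the 9 genes (Cldn3, Cldn4, Cldn6, Cldn7 and Tjp1) were higher in the miR-Ctrl BDL group than in no BDL and 0 were lower, beside 19.1% of the 13072 genes tested that were higher and 16.6% that were lower. By DESeq2 6 of the 9 were higher, beside 21.5% of all genes. The groups did not overlap, with BDL higher, for the same 5 of 9 genes and for 14.8% of all genes. In the anti-miR-873-5p BDL group 4 of the 9 (Cldn3, Cldn4, Cldn6 and Cldn7) were higher and 0 lower, beside 13.1% and 8.44% of 13130 genes, and by DESeq2 5 of the 9, beside 16.1%. Cldn4, Cldn6 and Cldn7, which are in both counts, passed the filter on low counts through the BDL mice alone, and without that filter the counts were again 5 and 4. In the anti-miR-873-5p BDL group the ranges of levels lay apart from no BDL for 4 of 9 (Cldn3, Cldn4, Cldn6 and Tjp1) and for 10.1% of all genes. The median log2 fold change of the 9 genes was 0.66 and 0.60, compared with -0.01 and -0.01 for all genes tested. Without miR-Ctrl BDL mouse 3 the first count was 7 of 9, and the share of all genes past the threshold in either direction went from 35.7% to 42.3%. Without anti-miR-873-5p BDL mouse 2 the second count was 6 of 9, and that share went from 21.5% to 31.7%.

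Between both BDL groups no difference in the 9 genes passed the threshold. With 3 mice per group, edgeR called 0 of 13746 genes, or 0%, and DESeq2 30, or 0.218%, none of them among the 9. An unadjusted p under 0.05 was found for 863 genes, or 6.28%, and for 1 of the 9, Tjp3. In this table Tjp3 had 79.1, 66.9 and 68.3 CPM in miR-Ctrl BDL mice 1, 2 and 4 and 54.0, 48.1 and 38.9 CPM in anti-miR-873-5p BDL mice 1, 3 and 4. Every anti-miR-873-5p BDL mouse was below every miR-Ctrl BDL mouse, as was so for 4.77% of all genes. The log2 fold change was -0.61 ± 0.14 (95% interval -0.94 to -0.27), with an unadjusted p of 0.0039 and an adjusted p of 0.76 in edgeR's test, and the adjusted p was 0.14 in DESeq2. When the mice missing from this table were added, so that each group had 4, the log2 fold change was -0.58 with an unadjusted p of 0.19 in edgeR's test, and both added mice, miR-Ctrl BDL mouse 3 and anti-miR-873-5p BDL mouse 2, had the lowest Tjp3 of their groups.

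For the other 8 genes the intervals of the difference between the BDL groups included 0. They were widest for Cldn4, with a log2 fold change of 0.15 (95% interval -1.10 to 1.39), Cldn6 at 0.39 (-0.58 to 1.37) and Cldn7 at 0.26 (-0.54 to 1.07). In the scaling of this table Cldn4 was 6.47, 9.40 and 6.78 CPM in the miR-Ctrl BDL group and 2.81, 15.1 and 7.17 CPM in the anti-miR-873-5p BDL group, so that the treated mice held both the lowest and the highest value. Without anti-miR-873-5p BDL mouse 3 these log2 fold changes were -0.59, -0.12 and -0.07. The intervals were narrower for Tjp1 at -0.01 (-0.30 to 0.28), Cldn3 at 0.17 (-0.14 to 0.47) and Cldn2 at 0.23 (-0.04 to 0.50). All differences within these intervals are compatible with the data from 3 mice per group. A p above the threshold does not show that the groups were alike. The 2 genes whose 3′UTR holds the letters that pair with the miR-873-5p seed, Cldn6 and Tjp1, were both among these 8.

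**Figure D4:**
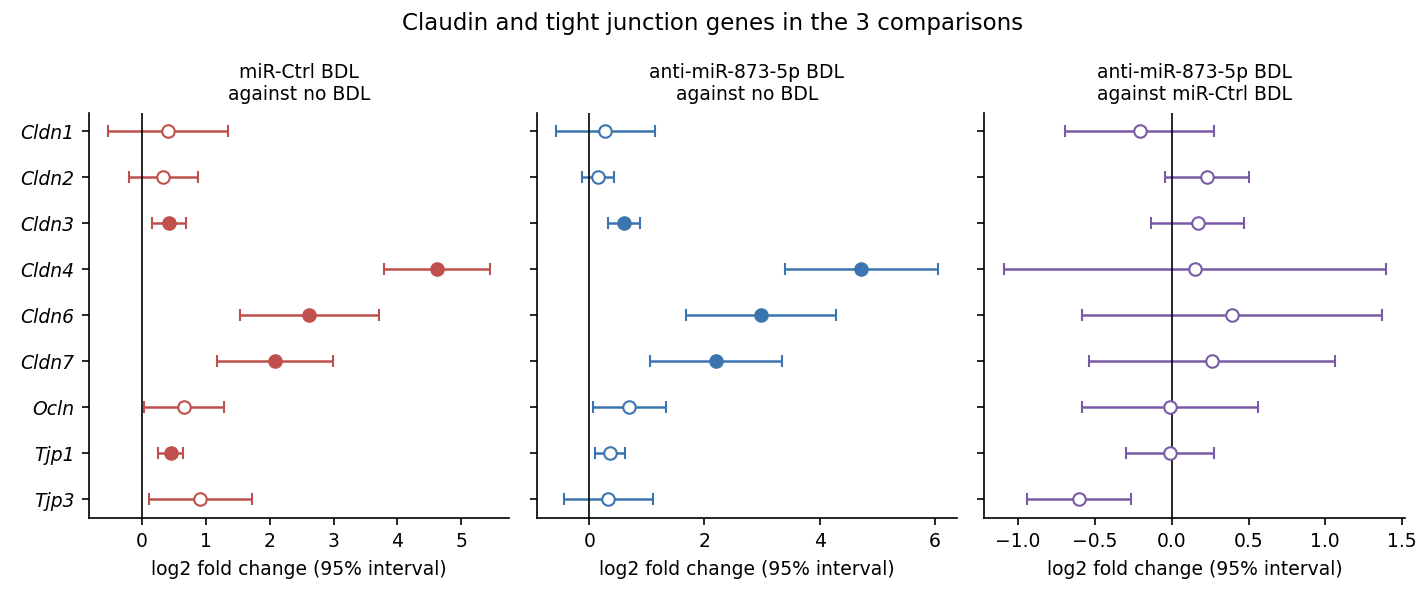
Log2 fold change with its 95% interval for each gene in the 3 comparisons, from edgeR's quasi-likelihood fit over all genes, with filled points for an adjusted p under 0.05 and open points otherwise. Scales differ between panels. Filled points are 5 in the left panel and 4 in the middle panel, where Cldn4 lies at 4.62 and 4.73, and there is none in the right panel, where Tjp3 at -0.61 is the gene whose interval excludes 0.

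The rest of the tight junction was covered by 57 further genes in 4 lists. Of these 40 passed the filter in the comparison of miR-Ctrl BDL with no BDL. There 15 were higher and 4 lower, beside 19.1% and 16.6% of all genes, with a median log2 fold change of 0.27. In the anti-miR-873-5p BDL group 12 of 40 were higher and 0 lower, beside 13.1% and 8.44% of all genes, with a median of 0.16. This second count was 7 without no BDL mouse 1 and 7 without anti-miR-873-5p BDL mouse 4. Between the BDL groups 0 of 44 passed the threshold in edgeR or DESeq2, and 2 had an unadjusted p under 0.05 in edgeR, among them the polarity kinase gene Prkcz with a log2 fold change of 0.41.

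Among 11 junction membrane proteins that are not claudins, 5 of the 8 tested were higher in the miR-Ctrl BDL group and 5 of 9 in the anti-miR-873-5p BDL group. This stands beside 19.1% and 13.1% of all genes, and the median log2 fold changes of the list were 0.82 and 0.77. Cxadr, an adhesion receptor of the junction, rose from 66.4 ± 14.8 (SD, n = 5) to 197 ± 17.4 CPM (n = 4) in the miR-Ctrl BDL group, a log2 fold change of 1.56 ± 0.17 with an adjusted p of 2.2e-04 in edgeR's test. In the anti-miR-873-5p BDL group it rose to 151 ± 42.9 CPM (1.16 ± 0.22, adjusted p 0.0076). F11r, which encodes the junctional adhesion molecule JAM-A, rose by 1.35 ± 0.11 and 1.10 ± 0.16 on the log2 scale. Marveld3, a relative of occludin, rose by 2.40 ± 0.60 from a low level of 0.604 CPM and by 2.45 ± 0.67, and it passed the filter through the BDL mice alone. Marveld2, which encodes tricellulin at the corners of 3 cells, rose by 0.89 in the miR-Ctrl BDL group, and Ildr2, an angulin of cell corners, by 1.03 in the anti-miR-873-5p BDL group.

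Of the 14 junction plaque proteins tested, 7 were higher and 1 lower in the miR-Ctrl BDL group, beside 19.1% and 16.6% of all genes. In the anti-miR-873-5p BDL group 5 were higher, beside 13.1% of all genes, and the medians were 0.38 and 0.40. Arhgef2, an exchange factor for small GTPases that is held at the junction, rose by 2.03 ± 0.29 and 1.76 ± 0.28 on the log2 scale. Mpdz, a multi-PDZ scaffold, fell by 0.95 on the log2 scale in the miR-Ctrl BDL group. Its relative Patj rose by 0.72 in the anti-miR-873-5p BDL group, and Amot rose by 0.87 and 1.10.

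The polarity complexes place the junction in the cell. Of 14 of their genes tested, 2 were higher and 2 lower in the miR-Ctrl BDL group, beside 19.1% and 16.6% of all genes. In the anti-miR-873-5p BDL group 2 were higher, beside 13.1% of all genes. These counts are near the shares of all genes, and the medians were -0.13 and -0.00. Pard6b rose by 0.85 and 0.92 and Llgl1 by 0.61 and 0.62 on the log2 scale. Prkcz and Pard3 had log2 fold changes of -0.51 and -0.40 in the miR-Ctrl BDL group, both past the threshold, but their direction turned with library size alone.

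Most other claudins did not pass the filter on low counts. Of 17, 4 passed the filter in the miR-Ctrl BDL group against no BDL and 3 in the anti-miR-873-5p BDL group. Cldn12, a claudin without the usual scaffold-binding end, was 60.5 ± 6.25 CPM in no BDL and 45.2 ± 4.59 CPM in the miR-Ctrl BDL group (log2 fold change -0.42 ± 0.11, adjusted p 0.015), a direction that turned with library size alone. Cldn15, which passed the filter through the miR-Ctrl BDL mice alone, had 0, 1, 0, 2 and 0 reads in no BDL mice 1 to 5, 11, 23, 15 and 36 reads in miR-Ctrl BDL mice 1 to 4 and 7, 26, 14 and 49 reads in anti-miR-873-5p BDL mice 1 to 4, where it did not pass the filter. Every BDL mouse had more Cldn15 reads than any no BDL mouse. Cldn5, the claudin of endothelial cells, had 80, 75, 65, 42 and 87 reads in no BDL mice 1 to 5, 61, 104, 2 and 50 in miR-Ctrl BDL mice 1 to 4 and 72, 16, 27 and 86 in anti-miR-873-5p BDL mice 1 to 4. Neither BDL group passed the threshold for Cldn5, and miR-Ctrl BDL mouse 3, with 2 reads, was the lowest mouse of all.

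**Figure D5:**
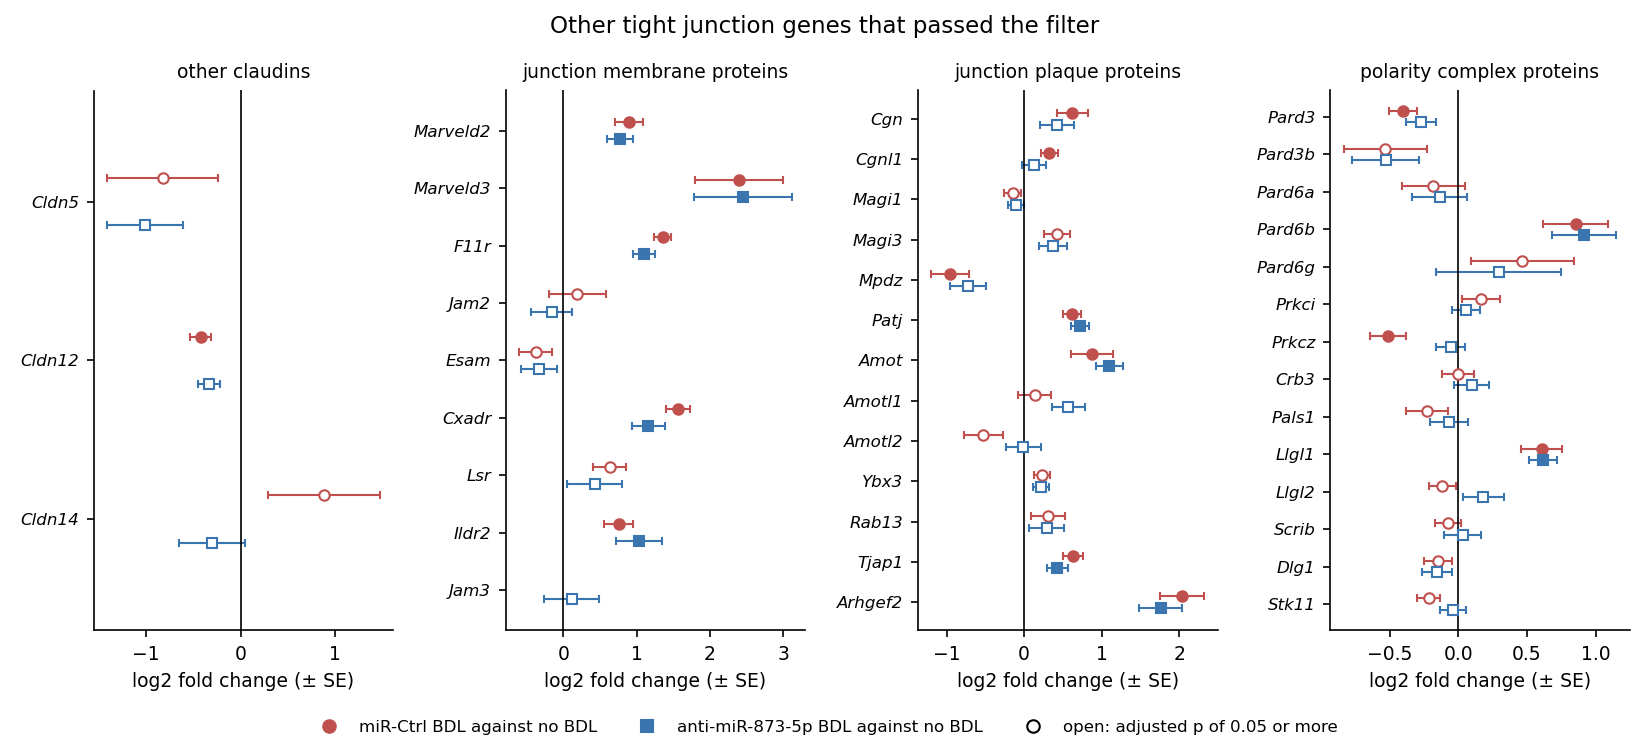
Log2 fold change ± SE of other tight junction genes that passed the filter, by list, in the miR-Ctrl BDL group (circles) and anti-miR-873-5p BDL (squares) against no BDL, with filled symbols for an adjusted p under 0.05. Cldn15 is left out because it had at most 2 reads in every no BDL mouse. The filled symbols lie mostly to the right of 0, with Mpdz, Pard3, Prkcz and Cldn12 to the left in the miR-Ctrl BDL group, of which Pard3, Prkcz and Cldn12 turn with library size alone.

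The neighbouring junctions are given for comparison. Among 15 genes of adherens junctions and desmosomes, 7 were higher and 1, Nectin3, lower in the miR-Ctrl BDL group, beside 19.1% and 16.6% of all genes. The direction of Nectin3 turned with library size alone. In the anti-miR-873-5p BDL group 5 were higher, beside 13.1% of all genes, and the medians were 0.41 and 0.33. Cdh1, which encodes E-cadherin, rose by 1.02 and 0.90 on the log2 scale, the desmosomal gene Dsp by 0.87 and 0.80, Jup by 0.55 and 0.64 and Afdn by 0.50 and 0.42. Of 4 connexins tested, Gja1 rose by 1.73 ± 0.24 and 1.46 ± 0.34. Gjb1, the main connexin of hepatocytes, went from 525 ± 54.9 to 284 ± 16.0 CPM in the miR-Ctrl BDL group (log2 fold change -0.88) and to 328 ± 74.5 CPM in the anti-miR-873-5p BDL group (-0.71), a direction that in the anti-miR-873-5p BDL group turned with library size alone.

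Of 18 genes of epithelial transcription factors, 13 were tested. In the miR-Ctrl BDL group 3 were higher and 3 lower, beside 19.1% and 16.6% of all genes. In the anti-miR-873-5p BDL group 3 were higher and 2 lower, beside 13.1% and 8.44% of all genes. Elf3, an Ets factor of epithelia, rose from 0.683 ± 0.299 to 27.5 ± 7.21 CPM in the miR-Ctrl BDL group, a log2 fold change of 5.31 ± 0.30 with an adjusted p of 3.1e-05 in edgeR's test. In the anti-miR-873-5p BDL group it rose to 12.5 ± 7.04 CPM (4.15 ± 0.45, adjusted p 8.8e-04). Between the BDL groups Elf3 averaged 44.7 CPM with miR-Ctrl and 20.99 CPM with anti-miR-873-5p in the scaling of that table, a log2 fold change of -1.09 with an unadjusted p of 0.0046 and an adjusted p of 0.76 in edgeR's test. Ehf, a further Ets factor, rose by 2.44 and 2.97, and Snai1, which encodes the repressor Snail, by 1.13 and 1.46. Elf3, Ehf and Snai1 each had 1 of 5 no BDL mice over the limit of the filter and passed it through the BDL mice alone. The lower ones included Foxa1, with log2 fold changes of -0.76 and -0.62, and Foxa2, with -0.71 and -0.56, and the direction of both turned with library size alone.

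Finally, the genes whose deviations within groups were most like those of each junction gene were looked up among 12644 genes over the 13 mice, as a description. Each value is the highest picked from so many genes, and how high it would be by chance was not tested. Values in brackets leave out the 2 farthest mice. For Cldn7 they were Epcam, the epithelial cell adhesion molecule and one of the cholangiocyte markers above, with a Pearson r of 0.94 (0.93), Tesc with 0.94 (0.90) and Plet1 with 0.94 (0.89). For Cldn6 they were Zfp14 with 0.90 (0.89), Cldn7 with 0.89 (0.78) and Itgb4 with 0.88 (0.63). For Cldn4 they were Gm17644 with 0.91 (0.83), Bcl2 with 0.87 (0.83) and Mob3a with 0.85 (0.85). The closest gene was Dhx29 for Cldn1 with 0.96 (0.95), Bag3 for Cldn2 with 0.95 (0.81) and Rbbp5 for Cldn3 with 0.89 (0.77). It was Kbtbd4 for Ocln with 0.93 (0.86), Pign for Tjp1 with 0.91 (0.90) and H1f10 for Tjp3 with 0.96 (0.91). Among the junction genes themselves Cldn1 and Tjp3 had an r of 0.78 (0.87 without the 2 mice farthest from the median). Ocln and Tjp3 had an r of 0.69, which fell to 0.24 without miR-Ctrl BDL mouse 3 and anti-miR-873-5p BDL mouse 2. Ocln had an r of -0.84 with 5 mesothelial markers (-0.73 without the 2 farthest mice).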

How the data were processed

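Whole-liver RNA of 13 mice was sequenced by the authors, who made libraries with the TruSeq RNA v2 kit, read 50 nt single ends on a HiScanSQ and mapped them with TopHat to mm10. The submitters' processing notes also name CASAVA 1.8.2, FastQC, Trim Galore and DESeq2. The program and annotation that made the counts are not given in the sources used here. The authors deposited raw read counts per Entrez gene in 3 tables, 1 per comparison, and 0 columns of values were left out.

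Symbols were matched through Entrez numbers (99.69% to 99.75% of the rows). In R 4.3.3, genes were kept by filterByExpr, scaled by TMM and tested with edgeR 4.0.16 (quasi-likelihood, Benjamini-Hochberg over all genes tested, adjusted p under 0.05). Errors of fold changes are SE, those of levels SD. DESeq2 1.42.0 was an alternative. Levels per kb used the union of GENCODE M21 protein-coding exons. Likeness used log2 CPM with a prior count of 2, for the genes that averaged 10 or more counts and whose counts did not differ between tables. Coordinates, promoters and the miRNA are those of RefSeq on GRCm38.p6, and 3′UTRs are those of GENCODE M21. No protein sequences were used here.

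On simulated counts with 200 genes changed by 2 on the log2 scale, the test recovered 95% of them when miR-Ctrl BDL was compared with no BDL, 97% when anti-miR-873-5p BDL was, and 96.5% between the BDL groups. Unchanged genes made up 4.52%, 8.06% and 6.31% of the calls. The changed genes were drawn from the better counted ones and were raised or lowered at random. The recovery therefore does not apply to smaller changes, to genes with few reads or to changes mostly in one direction.

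The 9 genes and all gene lists were chosen with earlier results of these data known. Besides these 9, up to 4 genes with the largest log2 fold change past the threshold are named per list and comparison with no BDL, and up to 3 per junction gene for likeness. Genes named outside this rule (Cldn5, Nectin3, Foxa2, Apoa1, Ass1, Wbscr25 and Apba3, and Prkcz and Elf3 between the BDL groups) were picked with their values in view. Some genes that are counted in the lists are not reported here by name. Alternatives are given in the closing section, and 2 of them were chosen after seeing the data, namely a library size without the 20 genes with the most counts and Tjp3 counts taken from both tables.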

Additional observations from a re-analysis of the deposited data

Results flagged for a closer look

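Each group of 4 or 5 mice was examined for a mouse standing apart from the rest, in 27 sets of values of the 9 genes. This marked 2 of the 27, and chance marks about 1 in 20.

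Cldn2 was 190.1 CPM in miR-Ctrl BDL mouse 3, while the other 3 mice of this group had 82.8 to 95.3 CPM. The gap to the nearest mouse was 0.883 of the whole range. Without this mouse the log2 fold change of Cldn2 against no BDL was -0.04, compared with 0.33 with it.

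Cldn6 was 1.083 CPM in no BDL mouse 4, from 16 reads, while the other 4 no BDL mice had 0.158 to 0.281 CPM. The gap was 0.867 of the range. In the same mouse Cldn7, at 1.76 CPM, and the summed cholangiocyte markers, at 118 CPM and mostly Spp1, were the highest of the no BDL group. The part of these markers in the value was not tested.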

How the results depend on the processing

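Fold changes are edgeR log2 values. Against no BDL, Cldn4 and Cldn6 stayed past the threshold in both BDL groups under all 17 alternatives run for each, as did Cldn7 and Tjp1 with miR-Ctrl and Cldn3 with anti-miR-873-5p. Scaling moved the counts most. With library size alone 9 of the 9 genes passed in each comparison with no BDL, and 34 (miR-Ctrl) and 33 (anti-miR-873-5p) of the other tight junction genes, where TMM gave 5 and 4 of the 9 and 19 and 12 others, but so did 73.7% and 77.6% of all genes tested, compared with 35.7% and 21.5% with TMM. With a library size without the 20 genes with the most counts 8 and 7 of the 9 passed, 22 and 20 others and 45.8% and 36.1% of all genes, 87.8% and 92.9% of all calls were higher, and the median of all genes was 0.35 and 0.34. Leaving out each mouse in turn gave 4 to 7 and 3 to 6 of the 9, and 14 to 23 and 7 to 16 others. By DESeq2 the counts were 6 and 5 of the 9 and 22 and 14 others, beside 39.3% and 27.6% of all genes.

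Against no BDL 1 direction turned, that of Cldn2 with miR-Ctrl, which ranged from -0.042 (without mouse 3) to 0.46 with 1 mouse left out. Between the BDL groups none of the 9 genes and none of the other tight junction genes passed the threshold under any alternative run. There Cldn2 turned to -0.19 with all 13 mice in 1 fit and -0.18 with 4 per group. With 1 mouse left out Cldn4 ranged from -0.59 to 0.55, Cldn6 from -0.12 to 0.71, Cldn7 from -0.072 to 0.54, Ocln from -0.26 to 0.22 and Tjp1 from -0.14 to 0.048. Ocln was 0.012 with library size alone, 0.038 with all 13 mice and 0.039 with 4 per group, and Tjp1 was 0.028 with library size alone. The cause was not tested.

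Mouse numbers are shared between groups, and no label says whether they pair the mice. Deviations of same-numbered mice had correlations of -0.21 to 0.09 in the comparisons with no BDL. Between the BDL groups, which share only 2 numbers, they were 0.38 for mouse 1 and -0.05 for mouse 4. Only mouse 1 between the BDL groups was matched best by the mouse of its own number. With the number as a replicate block, 5 (miR-Ctrl), 4 (anti-miR-873-5p) and 0 (between the BDL groups) of the 9 genes and 17, 9 and 0 others passed. Under the block Cldn3 with miR-Ctrl had an adjusted p of 0.095 and Tjp3 one of 0.0095, and between the BDL groups Cldn4 was -0.50 and Cldn6 -0.065.

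Depth limited Cldn4, Cldn6 and Cldn7 in no BDL livers, where they had 1 to 5, 2 to 16 and 4 to 26 reads. P-values measure the spread between 3 to 5 mice, and the labels name no batches.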
